A study of Mus musculus with 6 samples.

Results

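The Krüppel-like factors (KLFs) described here are 10 of the 15035 gene rows measured by RNA-seq in mouse leukemia cells: Klf2, Klf3, Klf4, Klf6, Klf7, Klf9, Klf10, Klf11, Klf13 and Klf16. They were taken by gene name, and they leave out the erythroid factor gene Klf1 and 4 other KLF genes of the table. The cells were bone marrow cells of the BALB/c mouse strain in which a retrovirus expressed mutant CSF3R (the G-CSF receptor) together with mutant CEBPA, a myeloid transcription factor. All 6 libraries carried both mutants and were grown in IMDM with 20% serum for 48 h, 3 with GSK-LSD1 at 4 nM, which blocks the histone demethylase LSD1, and 3 with DMSO, its solvent. The labels name neither the individual mutations nor a number of independent cell lines. Nothing in them states that libraries of 1 group are from separate cultures or animals. The p-values therefore reflect only the spread among these 6 samples, and that spread may be technical. The fit estimates the spread of each gene partly from other genes of similar level.

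KLF proteins bind CACCC and related GC-rich elements through zinc fingers at their C-terminal end, a domain they share with the SP factors. The parts of the proteins outside that domain set whether a member acts mainly as an activator or recruits a corepressor. KLF3 recruits CtBP. KLF9, KLF10, KLF11, KLF13 and KLF16 recruit SIN3A with histone deacetylases, while KLF2, KLF4, KLF6 and KLF7 are mostly described as activators. In blood, KLF2 is known for lymphocyte trafficking and quiescence and for restraining activation of monocytes, and KLF4 for the development of monocytes.

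The proximal promoters of 3 genes are shown because Klf2 and Klf3 had the largest rises among the 10 genes and Klf9 the largest fall. Each is the RefSeq window from 250 bases before to 50 bases after the gene's start on GRCm38.p6, given 5′ to 3′ on the strand of the gene, and such a window was found for 8 of the 10 genes. Capitals mark CACCC, its complement GGGTG, and the sequence CTAAATTTAG, a palindrome of the form bound by MEF2 factors. Klf2 is at chr8:72318812-72319111 (plus strand), Klf3 at chr5:64803271-64803570 (plus strand) and Klf9 at chr19:23140976-23141275 (plus strand).
Klf2: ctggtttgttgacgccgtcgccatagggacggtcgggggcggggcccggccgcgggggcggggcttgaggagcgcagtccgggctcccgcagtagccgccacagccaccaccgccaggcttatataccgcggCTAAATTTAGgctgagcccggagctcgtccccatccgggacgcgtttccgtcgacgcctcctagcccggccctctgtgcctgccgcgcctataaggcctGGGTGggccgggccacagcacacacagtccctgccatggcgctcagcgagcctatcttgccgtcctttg
Klf3: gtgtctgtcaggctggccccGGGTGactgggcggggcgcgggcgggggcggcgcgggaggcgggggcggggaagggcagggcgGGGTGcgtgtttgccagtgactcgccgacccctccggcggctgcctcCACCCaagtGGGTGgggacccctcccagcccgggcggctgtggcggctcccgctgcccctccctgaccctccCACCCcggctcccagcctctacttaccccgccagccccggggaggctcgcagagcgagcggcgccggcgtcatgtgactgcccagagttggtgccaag
Klf9: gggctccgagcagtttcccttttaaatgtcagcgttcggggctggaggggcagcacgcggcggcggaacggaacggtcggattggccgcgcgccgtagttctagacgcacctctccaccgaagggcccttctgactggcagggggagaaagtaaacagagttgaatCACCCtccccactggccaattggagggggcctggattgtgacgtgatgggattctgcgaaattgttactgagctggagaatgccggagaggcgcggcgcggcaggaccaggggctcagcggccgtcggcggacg

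The Klf3 window held 5 copies of CACCC or GGGTG, while the Klf2 and Klf9 windows held 1 each. Over both strands, 5 of the 8 KLF windows and 57.5% of all 32851 promoter windows had at least 1 copy. CTAAATTTAG began 118 bases before the start of Klf2 and was present in 13 of the 32851 windows (0.0396%). This motif was picked after the Klf2 sequence had been read. The broader MEF2 consensus, searched on both strands, occurred in 3.19% of windows, and among the 8 KLF windows in that of Klf2. AAATC and its complement GATTT are part of the sequence bound by the LSD1 partners GFI1 and GFI1B. Either was in 35.9% of all windows and in 0 of the 8 KLF windows. The 8 windows were 58.3% to 77.7% G or C, which these shares do not allow for. The shorter AATC or GATT was not counted over the windows and is present in that of Klf9. These are letter matches, and binding of a factor was not measured.

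With GSK-LSD1, Klf2 rose about 5-fold and Klf3, Klf11, Klf10 and Klf6 rose by smaller amounts, while Klf9 and Klf16 fell. Klf7 and Klf13 did not pass the test, and Klf4 was close to the detection limit in every library. Values are gene read counts divided by 1 scaling factor per library. Log2 fold changes come from limma on log2(value + 1), and a gene was called at a Benjamini-Hochberg adjusted p under 0.05 over the 11588 genes that were tested. Of the 9 KLF genes tested, all with a value of at least 10 in all 6 libraries, 5 were higher and 2 lower with GSK-LSD1. Among all genes tested 41.1% were called, 20.6% higher and 20.5% lower. Groups did not overlap for 6 of the 9 genes in the upward direction, where 24.7% of all genes met this, and for 2 in the downward direction, where 24.8% did (49.5% of all genes in either direction). The median log2 fold change was 0.27 over these 9 genes and -0.01 over all genes tested. In bulk RNA, fewer cells of a type and less RNA per cell cannot be told apart.

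**Figure D1:**
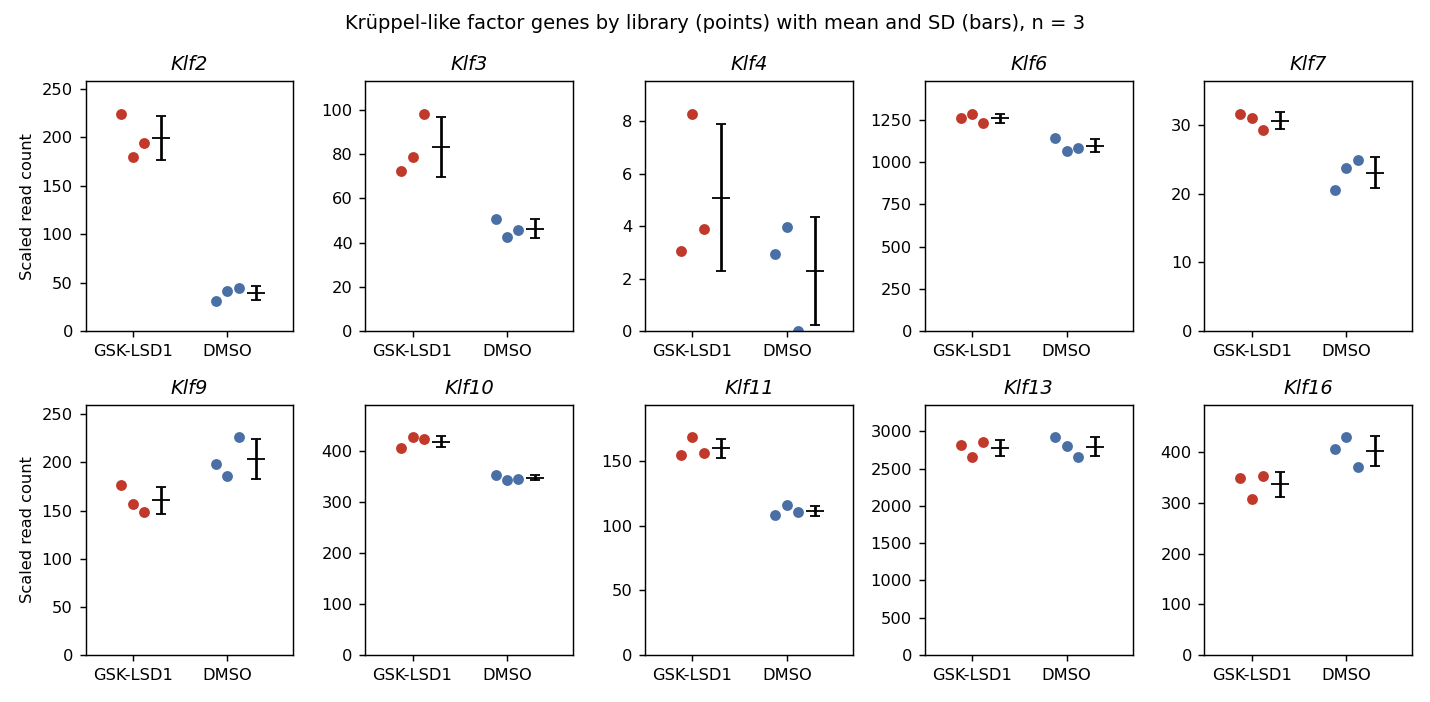
Scaled read count of each of the 10 KLF genes in every library, with GSK-LSD1 libraries (red) left of DMSO libraries (blue) and the mean and SD of 3 libraries beside them; each panel has its own linear axis from 0. The Klf2 points sit at 180 to 224 with GSK-LSD1 and at 31.3 to 44.8 with DMSO, whereas the Klf13 points overlap.

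Among the activators, Klf2 (chromosome 8, 72319033 to 72321656, GRCm38, plus strand, 3 exons) encodes a factor best known from T cells, endothelium and resting monocytes. Its values were 224, 180 and 194 in the GSK-LSD1 libraries and 31.3, 41.6 and 44.8 in the DMSO libraries. The lowest GSK-LSD1 library was far above the highest DMSO library. The means were 199 ± 22.7 with GSK-LSD1 and 39.2 ± 7.08 with DMSO (SD, n = 3 each), a 5.08-fold difference. The log2 fold change was 2.33 with a standard error of 0.146 (adjusted p = 1.32e-15, limma), and its 95% interval was 2.03 to 2.62. By fitted fold change Klf2 stood at rank 101 of the rises among the 11588 genes, of which 4.51% were both called higher and at least 2-fold up. Klf2 had the largest change of the 9 tested genes, and none of the others reached 2-fold.

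Klf6 (chromosome 13, 5861482 to 5870394), which encodes a widely expressed factor linked to inflammatory gene programs in macrophages, had far more reads and a small change. It had 1259, 1287 and 1230 with GSK-LSD1, and 1143, 1065 and 1086 with DMSO. The 2 groups did not overlap, though the gap was narrow next to their level. Klf6 averaged 1259 ± 28.2 with GSK-LSD1 and 1098 ± 40.0 with DMSO. The log2 fold change was 0.20 with a standard error of 0.0519 (adjusted p = 0.00233, limma). Klf7 (chromosome 1, 64029447 to 64122282), known mainly from neurons, had 31.6, 31.1 and 29.2 with GSK-LSD1 and 20.5, 23.8 and 24.9 with DMSO. All GSK-LSD1 values were above all DMSO values, but the log2 fold change of 0.40 did not pass the test (standard error 0.230, 95% interval -0.07 to 0.87, adjusted p = 0.169, limma). It passed when the variance was estimated without a trend on the mean (adjusted p = 0.0147). With quantile scaling its log2 fold change was 0.16 (adjusted p = 0.605), and Klf7 did not pass under the other alternatives in which it was tested. Exons of Klf7 share 3200 bases with gene models on the other strand and those of Klf3 share 404, and whether counting used strand is not stated in the labels, so both values are uncertain to that extent.

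Klf4 (chromosome 4, 55527143 to 55532466), required for the making of inflammatory monocytes and known as a reprogramming factor, was almost unread. Its values were 3.06, 8.28 and 3.89 with GSK-LSD1 and 2.93, 3.96 and 0 with DMSO. The groups overlapped, and no library reached the minimum value of 10, so the gene was not among those tested. With each library's smallest value set to 1 read, these are 15 reads over the GSK-LSD1 libraries and 7 over the DMSO libraries, a ratio of 2.22 with a 95% exact interval of 0.852 to 6.43 that covers counting error only. An exact permutation test of the 3 against 3 values gave p = 0.3 (two-sided; the smallest possible is 0.1). A difference in Klf4 was not detectable at this depth.

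The CtBP-recruiting repressor gene Klf3 (chromosome 5, 64803388 to 64832901) had the next largest rise. Its values were 72.4, 78.7 and 98.3 with GSK-LSD1 and 50.8, 42.6 and 45.8 with DMSO. The groups did not overlap, and the third GSK-LSD1 library was the highest. Klf3 rose 1.79-fold, to 83.1 ± 13.5 with GSK-LSD1, against 46.4 ± 4.12 with DMSO, with a log2 fold change of 0.82 and a standard error of 0.164 (adjusted p = 0.000105, limma). In red cell precursors Klf3 is a target of KLF1. Klf1 itself (chromosome 8, 84901928 to 84905291), outside the 10 genes, had 19.4, 19.7 and 11.7 with GSK-LSD1 and 43.9, 56.5 and 58.7 with DMSO, and fell 3.14-fold (log2 fold change -1.62, adjusted p = 7.11e-07, limma). Of the 9 red cell lineage genes tested, Klf1 among them, 8 were lower and none higher, and their summed value was 73.0 to 94.2 with GSK-LSD1 and 330 to 400.2 with DMSO. Some of the 8 were tested through their DMSO values alone, and such genes can hardly appear unchanged. An example is Slc4a1, with 1.32 ± 1.48 with GSK-LSD1 and 49.8 ± 8.82 with DMSO. The part of red cell precursors in the Klf3 and Klf1 values was not tested.

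The SIN3-recruiting members moved in different directions. Klf10 and Klf11 encode the TGF-beta-inducible early factors, and both rose. Klf11 (chromosome 12, 24651274 to 24662789) had 155, 169 and 157 with GSK-LSD1 and 108, 116 and 110.5 with DMSO. Klf10 (chromosome 15, 38291463 to 38300706) had 406, 426 and 422 with GSK-LSD1 and 353, 344 and 344 with DMSO. Neither gene's groups overlapped, and the libraries within a group lay close together. Klf11 rose 1.44-fold, to 160.2 ± 7.45 with GSK-LSD1, against 112 ± 3.89 with DMSO. Klf10 rose 1.21-fold, to 418 ± 10.8 with GSK-LSD1, against 347 ± 4.86 with DMSO. Both changes were smaller than that of Klf2. The log2 fold change of Klf11 was 0.52 with a standard error of 0.112 (adjusted p = 0.000289, limma), and that of Klf10 was 0.27 with a standard error of 0.0717 (adjusted p = 0.00265, limma).

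Klf9, Klf13 and Klf16 belong to the branch first described as basic transcription element binding proteins. Klf9 (chromosome 19, 23141226 to 23168134), a gene induced by glucocorticoids and thyroid hormone, had 176, 156 and 149 with GSK-LSD1 and 198, 186 and 226 with DMSO. Klf16 (chromosome 10, 80567124 to 80577321), first described as a regulator of dopamine receptor genes, had 349, 308 and 352 with GSK-LSD1 and 406, 429 and 371 with DMSO. For both genes every GSK-LSD1 library was below every DMSO library. Klf9 fell to 161 ± 14.3 with GSK-LSD1, against 203.5 ± 20.4 with DMSO, and was 1.27-fold lower. Klf16 fell to 337 ± 24.4 with GSK-LSD1, against 402 ± 29.1 with DMSO. Klf9 stood at rank 935 of the falls among all genes tested. The log2 fold change of Klf9 was -0.34 with a standard error of 0.104 (adjusted p = 0.00832, limma) and that of Klf16 was -0.26 with a standard error of 0.0779 (adjusted p = 0.00785, limma). Both calls were lost when certain single libraries were left out. Klf9 did not pass without GSK-LSD1 replicate 3 (adjusted p = 0.052) or without DMSO replicate 3 (0.0674), and Klf16 did not pass without GSK-LSD1 replicate 2 (0.0744) or without DMSO replicate 2 (0.0621). Klf13 (chromosome 7, 63886351 to 63938915), known as an activator of the chemokine gene Ccl5 in T cells, had 2813, 2650 and 2856 with GSK-LSD1 and 2918, 2807 and 2661 with DMSO. Its groups overlapped almost fully, with means of 2773 ± 109 with GSK-LSD1 and 2795 ± 129 with DMSO. The log2 fold change was -0.01 with a 95% interval of -0.11 to 0.08 (adjusted p = 0.867, limma).

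**Figure D2:**
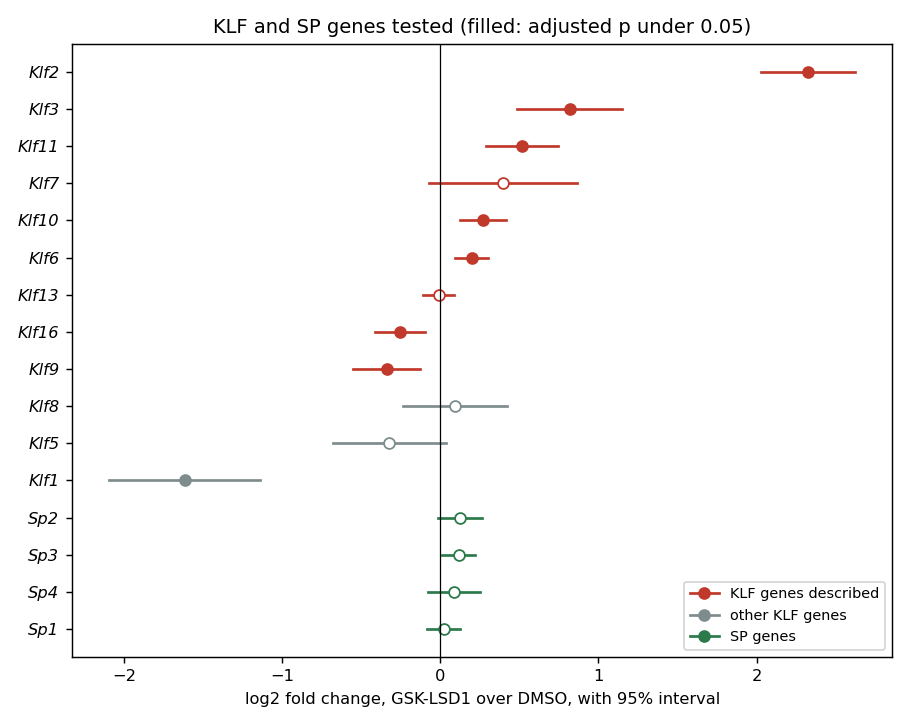
Log2 fold change, GSK-LSD1 over DMSO, with 95% intervals for the KLF genes described (red), the other tested KLF genes (grey) and the tested SP genes (green); filled points have an adjusted p under 0.05. Klf2 lies at 2.33 and Klf1 at -1.62, while the 4 SP genes lie between 0.02 and 0.12.

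The remaining KLF genes and the SP genes give the family's surroundings. Besides Klf1, the other KLF genes tested were Klf5 and Klf8. Klf5, an activator of epithelial cells and granulocyte precursors, had 44.0 ± 3.98 with GSK-LSD1 and 55.3 ± 4.98 with DMSO (log2 fold change -0.32, adjusted p = 0.144, limma). Its groups did not overlap, and it passed as lower with quantile scaling (-0.55, adjusted p = 0.0113) and without a trend (adjusted p = 0.0453). Klf8, another CtBP-recruiting repressor gene, had 62.0 ± 4.81 with GSK-LSD1 and 58.3 ± 6.25 with DMSO (log2 fold change 0.09, adjusted p = 0.69, limma). Klf12 and Klf15 were not tested, with means of 3.08 and 0.685 with GSK-LSD1 and of 1.31 and 0 with DMSO. Of the SP genes, Sp1, Sp2, Sp3 and Sp4 were tested and 0 passed by limma. At an unadjusted p under 0.05 there was 1, Sp3 (unadjusted p = 0.0294, adjusted p = 0.0669). Their values were 1681 ± 95.2 with GSK-LSD1 and 1655 ± 71.4 with DMSO for Sp1, which encodes the ubiquitous activator, and 1529 ± 25.4 with GSK-LSD1 and 1412 ± 84.0 with DMSO for Sp3. Sp3 passed as higher with equal totals (adjusted p = 0.0315), quantile scaling (0.0147), library weights (0.0400) and without DMSO replicate 3 (0.0131).

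Per kb of annotated exon, Klf13 had the highest level of the 10 genes in both groups and Klf4 the lowest. With GSK-LSD1 the levels per kb were 368 for Klf13, 287 for Klf6, 126 for Klf16, 108 for Klf2 and 100.1 for Klf10. With DMSO they were 371 for Klf13, 243 to 260.2 over the libraries for Klf6, 150.4 for Klf16, 83.0 for Klf10 and 42.3 for Klf9. Klf2 thus stood the fourth in the GSK-LSD1 libraries, where its range overlapped those of both Klf16 and Klf10. In the DMSO libraries it was the seventh, at 21.2 per kb, below Klf11 at 25.7, and the ranges of the 10 genes did not overlap between neighbours in the order. With GSK-LSD1 the ranges also overlapped between Klf11 (36.9) and Klf9 (33.4), and between no other neighbours. Klf2 made up 9.33% to 11.1% of the summed level per kb of the 10 genes with GSK-LSD1, and 1.74% to 2.62% with DMSO. On the same scale Klf13 made up 33.7% to 35.2% with GSK-LSD1 and 38.2% to 39.7% with DMSO. Not divided by length, the summed scaled value of the 10 genes was 5294 to 5491 with GSK-LSD1 and 4915 to 5232 with DMSO, and these ranges did not overlap. Exon length is the union of all transcripts of a gene in GENCODE M21, which lowers the level per kb of genes with many alternative exons, such as Klf3 with 9 transcripts and 11.243 kb.

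**Figure D3:**
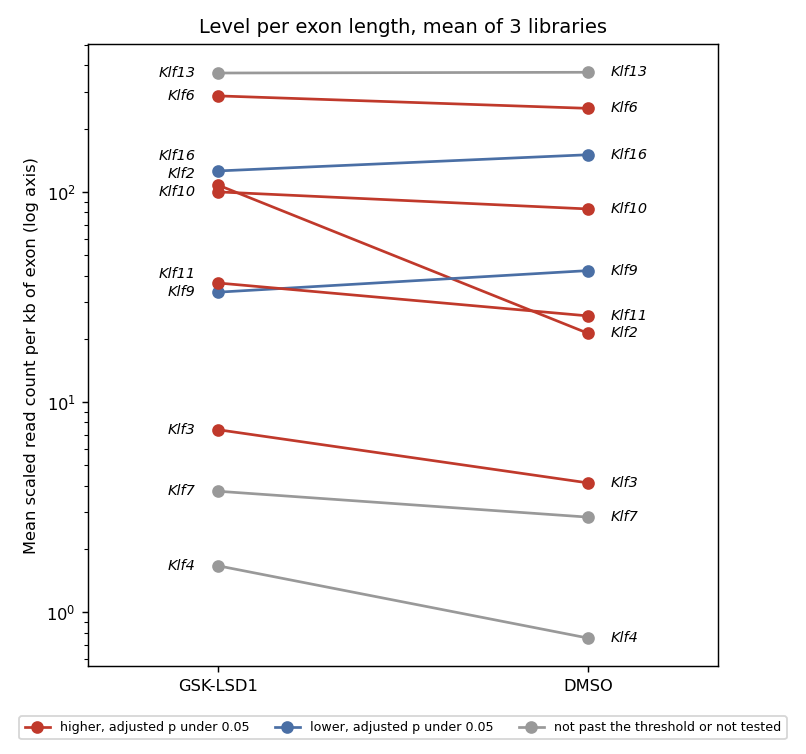
Mean scaled read count per kb of exon (log axis) of the 10 KLF genes over 3 GSK-LSD1 libraries (left) and 3 DMSO libraries (right), joined by lines that are red for genes higher, blue for genes lower and grey for the rest. The Klf2 line crosses those of Klf10, Klf9 and Klf11, with its ends at 108 per kb with GSK-LSD1 and 21.2 per kb with DMSO.

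Genes tied to the KLFs by function were counted in lists written from general knowledge but with results of these data known, beside 20.6% higher and 20.5% lower over all genes. Upstream of Klf2 and Klf4, the kinases MEK5 and ERK5 act through MEF2 factors, and FOXO factors also drive Klf2 in lymphocytes. Of 15 tested genes of this group 6 were higher and 3 lower, with a median log2 fold change of 0.08. Mef2a rose to 494 ± 10.9 with GSK-LSD1, against 340 ± 9.46 with DMSO, Foxo1 rose 1.42-fold and the MEK5 activator gene Map3k3 1.37-fold. Mef2d fell to 608 ± 33.9 with GSK-LSD1, against 719 ± 78.7 with DMSO. Hdac7, whose protein represses MEF2, had a log2 fold change of -0.21 and Pdcd10 of -0.20, and both passed the test. Hdac5, which encodes another repressor of MEF2, and Krit1, whose protein acts with that of Pdcd10, rose by 0.34 and 0.23 on the log2 scale. The Mef2d call was lost without GSK-LSD1 replicate 1 (adjusted p = 0.0527, limma), without DMSO replicate 1 (0.0778) and without a trend (0.0958). The genes of the kinases themselves, Map2k5 and Mapk7, had log2 fold changes of -0.03 and 0.14 and did not pass; these names, and those of Hdac5 and Krit1, were added after their values were seen.

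Of 15 tested genes of the TGF-beta pathway, which induces Klf10 and Klf11, 10 were higher and 2 lower, with a median log2 fold change of 0.30. The list holds genes that carry the signal and genes that inhibit it, so its count and median have no single meaning for pathway activity. Smad6, an inhibitor of the pathway, had 11.8 ± 1.63 with GSK-LSD1 and 2.62 ± 2.02 with DMSO. It was tested through its GSK-LSD1 values alone, and such a gene can hardly appear unchanged. The receptor gene Acvrl1 rose to 39.7 ± 2.39 with GSK-LSD1, against 13.8 ± 1.03 with DMSO, and Smad3, a signal transducer, to 55.0 ± 8.75 with GSK-LSD1, against 32.6 ± 6.27 with DMSO. The ligand gene Tgfb1 fell to 5544 ± 33.9 with GSK-LSD1, against 6473 ± 267 with DMSO. Tgif2, a corepressor of SMADs, fell by 0.30 on the log2 scale, and this call was lost without GSK-LSD1 replicate 3 (adjusted p = 0.0735) or DMSO replicate 2 (0.124). Skil and Tgif1, which also encode SMAD corepressors, rose by 0.73 and 0.42 on the log2 scale. Smad7, which KLF10 and KLF11 are reported to act on, had 141 ± 15.4 with GSK-LSD1 and 122 ± 12.2 with DMSO and did not pass (adjusted p = 0.16, limma). Skil, Tgif1 and Smad7 were named after their values were seen.

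Of 10 tested genes of the glucocorticoid response, to which Klf9 and Klf13 belong, 2 were higher and 5 lower, with a median log2 fold change of -0.12. Sgk1, a kinase gene, rose to 348 ± 24.8 with GSK-LSD1, against 217 ± 13.8 with DMSO, and Cebpd 1.41-fold. The clock gene Per2 fell to 48.4 ± 4.79 with GSK-LSD1, against 85.6 ± 6.09 with DMSO, and Zbtb16 and Fkbp5 fell by 0.37 and 0.33 on the log2 scale.

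Of 12 tested corepressor genes, 0 were higher and 3 lower, with a median log2 fold change of -0.07. These were Ctbp2 (log2 fold change -0.21), the KLF3 partner gene Fhl3 (-0.20) and Hdac1 (-0.14). The count of lower genes was 0 without GSK-LSD1 replicate 2, GSK-LSD1 replicate 3 or DMSO replicate 2. Of 13 genes for coactivators and for ubiquitin ligases that act on KLF proteins, 3 were higher and 2 lower. The acetyltransferase genes Crebbp and Ep300 had log2 fold changes of 0.39 and 0.25, and the ligase gene Itch of 0.27, whereas Kat2a and Stub1 had -0.23 and -0.14. The groups overlapped for Crebbp, and its call was lost without a trend (adjusted p = 0.061, limma). The lower count was 1 without GSK-LSD1 replicate 1, GSK-LSD1 replicate 2, GSK-LSD1 replicate 3 or DMSO replicate 2 and 4 without DMSO replicate 3. The higher count was 5 without GSK-LSD1 replicate 1.

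**Figure D4:**
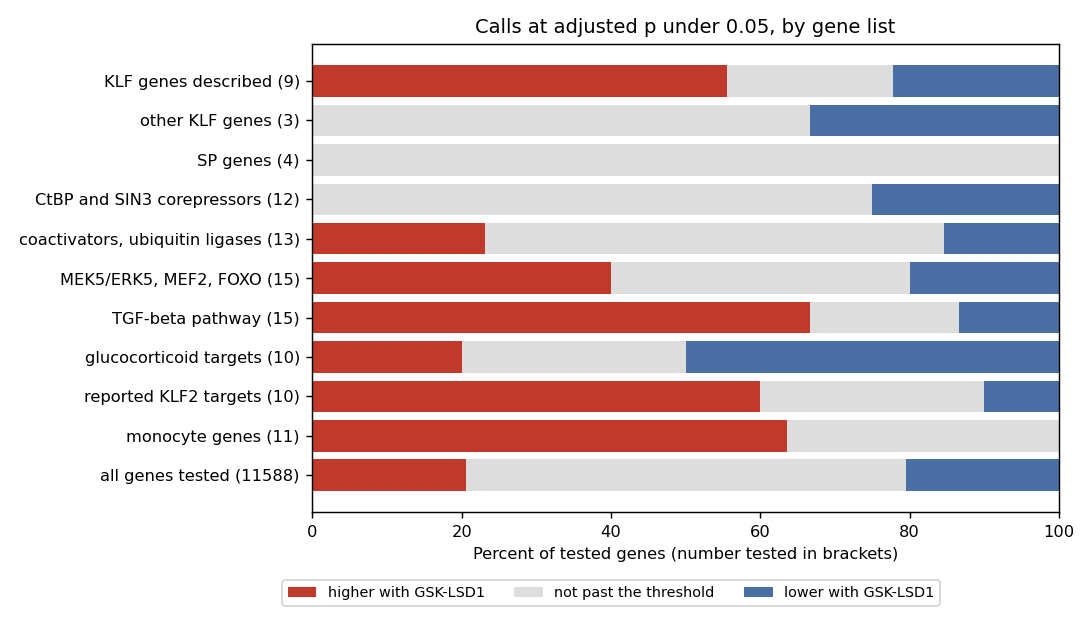
Percent of tested genes higher (red), not past the threshold (light grey) and lower (blue) with GSK-LSD1 in each list, with all 11588 genes tested in the bottom row and the number tested in brackets. Of the KLF genes described 5 of 9 were higher, of the TGF-beta list 10 of 15, and of all genes 20.6%.

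Among genes reported as targets of KLF2 in lymphoid, endothelial or myeloid cells, 6 of 10 tested were higher and 1 lower, with a median log2 fold change of 0.64. S1pr1, which encodes the receptor for exit from lymphoid organs, had 14.1 ± 2.21 with GSK-LSD1 and 4.60 ± 1.48 with DMSO, and like Smad6 it was tested through its GSK-LSD1 values alone. Itgb7 rose 1.99-fold. Thbd, the thrombomodulin gene that KLF2 induces in endothelium, fell to 28.9 ± 6.65 with GSK-LSD1, against 64.8 ± 1.91 with DMSO. The list holds genes that KLF2 raises and genes that it lowers, so its median has no single meaning for KLF2.

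Of 11 tested genes of the monocyte program in which KLF4 is required, 7 were higher and none lower, with a median log2 fold change of 0.69. Adgre1, which encodes a surface receptor of macrophages, had 159, 163 and 154 with GSK-LSD1 and 20.5, 16.8 and 14.9 with DMSO, a 9.09-fold rise. Csf1r, the macrophage growth factor receptor gene, rose to 45.0 ± 12.2 with GSK-LSD1, against 11.8 ± 4.17 with DMSO, and Itgam 3.54-fold. The 4 that did not pass were Ly6c1, Cx3cr1, Nr4a1 and Spn, named after their values were seen. Cx3cr1 had 37.7 ± 1.71 with GSK-LSD1 and 47.1 ± 0.629 with DMSO, and its groups did not overlap. With quantile scaling 1 gene of this list was called lower. The values of Klf4 in the same libraries were at most 8.28.

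Markers of other cells in which KLF genes are known were summed per library. Over the T and NK cell list, with 7 of 11 genes measured, the summed value was 242 to 283 with GSK-LSD1 and 326.5 to 357 with DMSO. Lck had 82.8 ± 3.43 with GSK-LSD1 and 121.5 ± 14.0 with DMSO, Nkg7 had 124 ± 17.8 with GSK-LSD1 and 156 ± 22.4 with DMSO, and both were called lower. The groups overlapped for Nkg7, and its call was lost without a trend (adjusted p = 0.121, limma). The Nkg7 call was also lost without GSK-LSD1 replicate 1 (0.0955) or 3 (0.146), or DMSO replicate 1 (0.162) or 2 (0.0914). Of the T cell receptor complex genes, Cd3g averaged 10.03 with GSK-LSD1 and 3.95 with DMSO, and Cd3d 0 with GSK-LSD1 and 0.991 with DMSO. The B cell list, with 5 of 8 measured, summed to 2.07 to 6.12 with GSK-LSD1 and 3.96 to 5.86 with DMSO. The endothelial list, with 6 of 10 measured, summed to 4446 to 4566 with GSK-LSD1 and 3643 to 4114 with DMSO, nearly all of it Pecam1, which myeloid cells also express; the endothelial receptor gene Tie1 averaged 1.71 with GSK-LSD1 and 0 with DMSO. Cd3g, Cd3d and Tie1 were named after their values were seen. The stromal list, with 3 of 10 measured, summed to 333 to 359 with GSK-LSD1 and 249.7 to 254 with DMSO, and its 2 tested genes, Pdgfrb and Col1a1, were both called higher. The Col1a1 call was lost with no filter on low values (adjusted p = 0.0636, limma) and with quantile scaling (0.287). It was also lost without GSK-LSD1 replicate 2 (0.171) or 3 (0.106), or DMSO replicate 1 (0.126) or 2 (0.0542). Neutrophil lineage markers summed to 32145 to 33228 with GSK-LSD1 and 14511 to 15561 with DMSO, of which Mmp8 had 15579 ± 296 with GSK-LSD1 and 2376 ± 61.2 with DMSO. Of the 11 neutrophil lineage genes tested 7 were higher and 4 lower, namely Elane, Prtn3, Ctsg and Ngp, of which Ctsg was named after its value was seen. Mast cell and basophil markers summed to 41597 to 43071 with GSK-LSD1 and 33104 to 35391 with DMSO, of which Cpa3 had 23028 ± 597 with GSK-LSD1 and 14320 ± 982 with DMSO. Of the 11 tested 5 were higher and 2 lower, namely Hdc and Fcer1a. The part of a shift in cell makeup in the KLF values was not tested.

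As for the series as a whole, the libraries held between 9572638 and 10199533 reads if its smallest value stands for 1 read. Kdm1a, the gene of the drug target, did not pass the test (log2 fold change -0.03, adjusted p = 0.631, limma); an inhibitor of the enzyme need not change its mRNA, so this is no check of the labels. On the same assumption, libraries of the same group differed by more than sampling noise, with a chi-square per degree of freedom of 2.52 to 3.51 between DMSO libraries and 1.57 to 1.86 between GSK-LSD1 libraries, against 17.7 to 20.1 between groups. The assumption is that the smallest value stands for 1 read. Klf2, Klf3, Klf6, Klf10 and Klf11 passed the test as higher under each of the 15 alternatives tried, which include leaving out each library in turn.

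**Figure D5:**
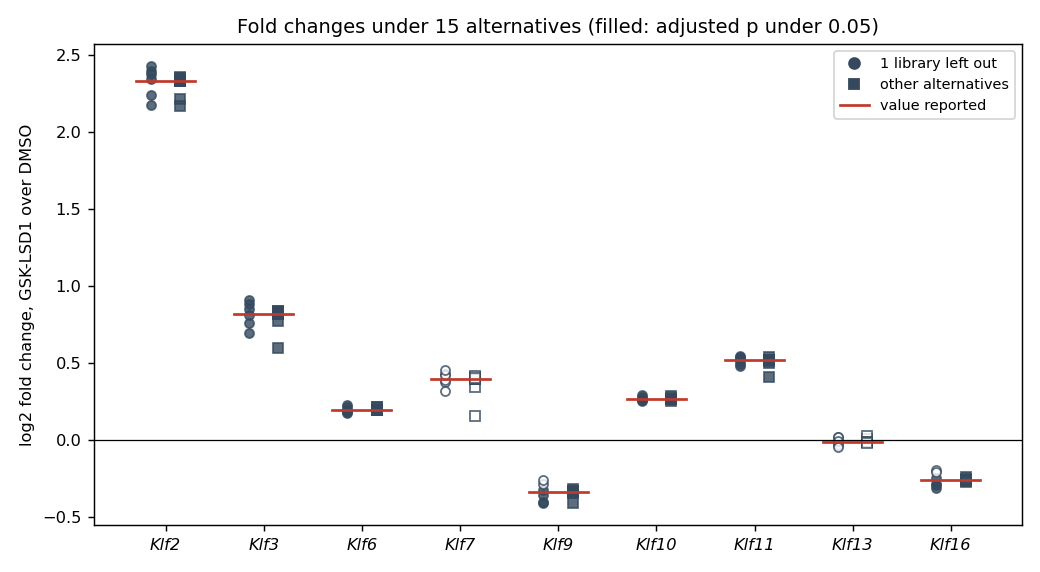
Log2 fold change, GSK-LSD1 over DMSO, of the 9 tested KLF genes when 1 library is left out (circles) and under the other alternatives (squares), with the reported value as a red line; filled symbols have an adjusted p under 0.05. Klf2 stays between 2.17 and 2.43, and open symbols appear for Klf7, Klf9, Klf13 and Klf16.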

How the data were processed

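RNA was sequenced in 3 GSK-LSD1 and 3 DMSO libraries, grouped by title. The authors deposited 1 table of scaled read signal: per the labels and the values, gene read counts divided by 1 factor per library. All values were whole multiples of their library's smallest value (tolerance 0.05 reads; smallest value 0.973 to 1.04). The authors used STAR, DESeq2, mm10 and GRCm38, per the submitters' processing notes, which give no version or role. Counting program, annotation and strand setting: not given in the sources used here. Of 15035 rows, 22 have names turned into dates; they were kept and are not named.

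Genes entered the fit with 10 or more in 3 or more libraries (11588 kept, 3447 not). limma 3.58.1 (R 4.3.3) was fitted to log2(value + 1) with a mean-variance trend, two-sided, and p-values were adjusted by Benjamini-Hochberg over the 11588 genes. Count models were not used, because the deposited values are normalised and not raw counts. Although all were whole multiples, the check for whole reads was not met where a scaling factor is close to 1. The fit was tested on simulated data. Intervals are 95%. Coordinates and exon lengths are from GENCODE M21 (GRCm38), exact tests from scipy 1.17.1.

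The KLF genes and all lists were chosen with earlier results of these data known. Named were all KLF and SP genes tested, Kdm1a, and per list up to 3 genes past the threshold in each direction by absolute fold change; some genes that this rule names are not reported here. Markers of T and NK, B, red cell, endothelial, stromal, mast cell and basophil, and neutrophil lineages were summed. Same-numbered replicates did not deviate together, so they were not paired in the fit. Protein sequences were not used here.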

Additional observations from a re-analysis of the deposited data

How the results depend on the processing

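Over 15 alternatives the calls of Klf2, Klf3, Klf6, Klf10 and Klf11 kept direction and threshold: Klf2 ranged from 2.17 to 2.43 on the log2 scale, Klf3 from 0.59 to 0.91, Klf6 from 0.18 to 0.23, Klf10 from 0.25 to 0.29 and Klf11 from 0.41 to 0.54. Library weights, chosen after seeing the data, changed none of the 9 calls. Klf7 ranged from 0.16 (quantile scaling) to 0.45. Without a mean-variance trend it passed (log2 fold change 0.40) and Klf16 did not (-0.26, adjusted p = 0.057), so that 1 KLF gene was lower and 6 higher. With 1 library left out, Klf9 ranged from -0.41 to -0.26, Klf16 from -0.31 to -0.20 and the number of KLF genes lower from 1 to 2. Klf13 changed sign, without passing, with equal totals (0.00824), quantile scaling (0.0265), without GSK-LSD1 replicate 2 (0.0209) and without DMSO replicate 1 (0.0200), and with 1 library left out it ranged from -0.0465 to 0.0209. Klf8 turned to -0.13 with quantile scaling, and the Sp1 log2 fold change to -0.00705 without GSK-LSD1 replicate 3 and -0.00738 without DMSO replicate 2 (up to 0.0694 with 1 library left out). The Klf4 difference, 1.08 on the log2(value + 1) scale, was 2.14 with a pseudocount of 0.1 and 0.37 to 1.52 with 1 library left out. The median of the MEK5/ERK5 and MEF2 list, 0.0764, was 0.0299 with quantile scaling and 0.136 without GSK-LSD1 replicate 3, and that of the coactivator list, 0.116, was 0.0655 with quantile scaling. The cause was not tested. Same-numbered libraries deviated with correlations of -0.0276 to -0.00771 across genes, so no pairing by number was detected. Such values cannot show how the libraries were prepared. With the replicate block 2345 genes were higher and 2316 lower, against 2389 and 2373 without it, and 5 and 2 KLF genes. Depth limits Klf4.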

Other observations

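By the smallest root mean square difference of centred log2(value + 1) profiles over the 6 libraries, the genes most like Klf2 were S100a6 (difference 0.0428), Ttc12 (0.0886) and Arhgap31 (0.0986), with log2 fold changes of 2.28, 2.28 and 2.27. Those most like Klf9 were Mad2l1bp (0.0545), Aven (0.056) and St6galnac6 (0.0602), with log2 fold changes of -0.35, -0.32 and -0.37. With 2 groups of 3 libraries such likeness reflects mainly the size of the difference between groups.

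The nearest tested genes on either side of each KLF gene were looked up after the fold changes were known. Not all of them are named here, and 41.1% of all genes tested were called. Beside Klf2, neither Eps15l1 (19.3 kb away, log2 fold change 0.08, adjusted p = 0.277, limma) nor Ap1m1 (0.03, adjusted p = 0.629) passed. Beside Klf3, Tlr1, a bacterial lipopeptide receptor gene 91.8 kb away, rose by 1.52 on the log2 scale (adjusted p = 1.87e-07, limma). On its other side Tbc1d1 (452 kb away) fell by 0.23 (adjusted p = 0.00274, limma). Smc5, 38.3 kb from Klf9, rose by 0.25 (adjusted p = 0.000154, limma) while Klf9 fell, and Abhd17b on the other side of Klf9 did not pass. Beside Klf11, the ribonucleotide reductase gene Rrm2 (45.5 kb away) fell by 0.26 on the log2 scale while Klf11 rose. Beside Klf16, Abhd17a (6.33 kb away) fell by 0.21 (adjusted p = 0.0155, limma), and Rexo1 (5.56 kb away) had -0.08 and did not pass.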
